A study of Mus musculus with 2 samples.

Results

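Gamma delta T cells were examined among the immune cells that had infiltrated mouse gingiva in a study of experimental periodontitis. They were chosen by their counts of unique molecular identifiers (UMIs), the tags that mark single transcripts. A barcode counted as a gamma delta T cell if it had at least 200 genes, at most 15% mitochondrial UMIs, at least 3 UMIs of Cd3e, Cd3d and Cd3g together, at least 2 UMIs of Trdc and Tcrg-C1 together, no UMI of Cd4 or Cd8b1, and under 3 of Il22. The limit on Il22 removed 0 barcodes in either library. By this rule 282 of 19705 kept barcodes were gamma delta T cells, of which 89 of 6936 came from the library labelled Otud1-/- and 193 of 12769 from the WT library.

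The series holds 1 droplet library of 3′ transcript ends for each genotype, both from gingiva of C57BL/6 mice. One was labelled Otud1-/-, for mice lacking the deubiquitinase OTUD1, and the other WT. For the number and sex of the animals, the way periodontitis was induced and the deleted part of Otud1, nothing is given in the sources used here. With 1 library per genotype there is no replicate and no test. Values carry 95% intervals that cover counting error only, and the libraries cannot be told apart from the genotypes.

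Otud1 went against its label. The gamma delta T cells held 20 Otud1 UMIs in the library labelled Otud1-/- and 7 in the WT library, or 41.2 (25.1 to 63.6) and 10.9 (4.37 to 22.4) CPM, the UMIs scaled to a total of 1000000 over these cells. All other Cd3-positive barcodes had 39.8 CPM in the library labelled Otud1-/- and 16.5 CPM in WT. Since the deleted part was not given, a 3′ tag need not lie in it, and no direction below is read as an effect of losing OTUD1. Whether the labels of the libraries were exchanged was not tested, and an exchange would turn every direction between them.

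The libraries also differed in ways that touch what follows. A gamma delta T cell held a median of 4708 UMIs in the library labelled Otud1-/- and 2407 in WT, and 1779 and 1113 genes. Over all barcodes, 14.2% of the library labelled Otud1-/- failed the mitochondrial limit, against 3.58% of the WT library. Xist UMIs were in 0 of 89 gamma delta T cells of the library labelled Otud1-/- and in 40 of 193 in WT, while Y-linked UMIs were in 61 and 75. The libraries shared 37 barcode sequences, 0 and 1 of them in gamma delta T cells of the library labelled Otud1-/- and of WT. One WT barcode of the set held 51659 UMIs, 8.01% of all UMIs of the WT gamma delta T cells, and 18070 of their 18756 Igkc UMIs, so it carried plasma cell RNA. Barcodes with UMIs of B cells, macrophages, dendritic cells or neutrophils above fixed minimums made up 20 of 89 (22.5%) in the library labelled Otud1-/- and 53 of 193 (27.5%) in WT. These are called mixed barcodes, and the counts between libraries are also given without them. The minimums do not catch all of them, as 1 cell of the library labelled Otud1-/- with 17965 UMIs and 147 of the macrophage gene Lyz2 passed.

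Gamma delta T cells carry a T cell receptor made of a gamma and a delta chain in place of the alpha and beta chains of CD4 and CD8 T cells. In mice, many of those that settle in barrier tissues leave the thymus already committed to make IL-17A, which acts on epithelium and stroma to draw in neutrophils. The cells that join the Tcrg-V6 segment to the Trdv4 segment are the best known of this kind and live in gingiva, uterus and dermis. They respond to IL-1 and IL-23.

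Receptor genes and effector genes of the set lie at a few loci of the GRCm38 genome. Trdc, the delta constant segment, is at chr14:54142851-54148868 on the plus strand, and the variable segment Trdv4 at chr14:54074905-54075515 on the same strand. Tcrg-C1, a gamma constant segment, is at chr13:19214103-19217024, with Tcrg-V6 before it at chr13:19190356-19190929, both on the plus strand. Il17a, at chr1:20730905-20734496 on the plus strand, and Il17f, at chr1:20777146-20790617 on the minus strand, are neighbours, and Cd163l1, which encodes a scavenger receptor of gamma delta T cells, is at chr7:140218267-140231145.

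The promoters of Il17a, Il17f and Il23r are shown because these genes are the type 17 cytokines and the IL-23 receptor subunit, and because each window holds the 6-base core that the nuclear receptor RORα binds, AGGTCA. Each is the RefSeq window (GRCm38.p6) of 250 bases before and 50 after the gene's start, read in the direction of transcription. Capitals mark AGGTCA or, for the other strand, TGACCT.
Il17a, chr1:20730655-20730954, plus strand: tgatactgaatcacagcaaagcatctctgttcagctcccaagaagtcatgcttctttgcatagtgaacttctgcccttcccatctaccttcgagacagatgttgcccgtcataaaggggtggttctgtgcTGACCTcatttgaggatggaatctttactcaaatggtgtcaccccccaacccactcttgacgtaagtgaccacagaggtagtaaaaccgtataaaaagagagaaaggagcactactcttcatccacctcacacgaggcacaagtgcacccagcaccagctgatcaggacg
Il17f, chr1:20784221-20784520, minus strand: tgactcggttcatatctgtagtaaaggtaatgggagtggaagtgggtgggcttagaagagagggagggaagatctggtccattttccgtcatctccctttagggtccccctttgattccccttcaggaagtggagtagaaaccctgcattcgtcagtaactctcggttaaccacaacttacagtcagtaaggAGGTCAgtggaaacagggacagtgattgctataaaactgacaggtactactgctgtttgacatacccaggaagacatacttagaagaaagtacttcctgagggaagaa
Il23r, chr6:67491806-67492105, minus strand: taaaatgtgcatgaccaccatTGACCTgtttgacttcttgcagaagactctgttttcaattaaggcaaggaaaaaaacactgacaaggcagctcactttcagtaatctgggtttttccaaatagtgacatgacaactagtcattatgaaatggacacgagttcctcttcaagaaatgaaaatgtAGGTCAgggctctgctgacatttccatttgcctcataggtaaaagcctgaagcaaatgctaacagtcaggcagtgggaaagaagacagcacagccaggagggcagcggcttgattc
The RefSeq start used for Il17f lies inside the GENCODE span given above, so its window is not at the outermost GENCODE start. The core began 120 bases before the RefSeq start of Il17a, 58 bases before that of Il17f, and 229 and 66 bases before that of Il23r. The Cd163l1 window held none. On either strand the 6 letters were in 16.3% of all 32851 such windows and in at least 1 window of 18.1% of 27025 genes. Of the 20 genes named below as highest in gamma delta T cells, 15 had a window in the table, and 7 of these held the core. The genes were chosen by their levels, a match of 6 letters is not a binding site, and the share was not tested.

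Markers of these cells stood far above their level in every other set of lymphocytes compared. Trdc and Tcrg-C1 chose the cells, so their levels are only a description. Trdc was at 2077 CPM (1009 UMIs) in gamma delta T cells of the library labelled Otud1-/- and 1415 CPM (912 UMIs) in those of WT, against 15.7 and 13.9 CPM in all other Cd3-positive barcodes of the same libraries. Il17a, the gene of the signature cytokine, was not in the rule. It was at 652 CPM (583 to 728) in the library labelled Otud1-/- and 369 CPM (324 to 419) in WT, with 20.4 and 10.0 CPM in all other Cd3-positive barcodes and 0 UMIs in the 127 and 70 natural killer cells. Cd163l1 was at 568 CPM (503 to 639) and 524 CPM (470 to 583), against 4.79 and 7.77 CPM in all other Cd3-positive barcodes. Both markers outside the rule therefore went with the label in both libraries.

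Several defining genes of other lymphocytes were low, but Trbc2 and some whole lists were not. Trac, the alpha chain constant segment, was at 55.6 CPM (27 UMIs) in gamma delta T cells of the library labelled Otud1-/- and 82.2 CPM (53 UMIs) in those of WT, against 280 and 272 CPM in all other Cd3-positive barcodes. Trbc2, a beta chain constant segment, was not low, at 926 and 662 CPM against 880 and 803 CPM. Trbc1, the other such segment, was at 578 and 465 CPM in gamma delta T cells. The whole alpha beta T cell list summed to 1574 and 1216 CPM against 1842 and 1707 CPM. Ifng, the type 1 cytokine, had 1 UMI in the library labelled Otud1-/- and 2 in WT, while natural killer cells had 248 and 127 CPM. Ncr1, which marks natural killer cells, had 0 and 2 UMIs, and Foxp3, the regulatory T cell factor, had 0 and 1 UMIs. The whole regulatory T cell list holds Il2ra and Tnfrsf9, also made by other activated T cells. It summed to 1447 and 1140 CPM against 654 and 611 CPM in all other Cd3-positive barcodes. The list of group 2 innate lymphoid cells, which holds Areg and Calca, summed to 370 and 403 CPM against 134 and 161 CPM.

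**Figure D1:**
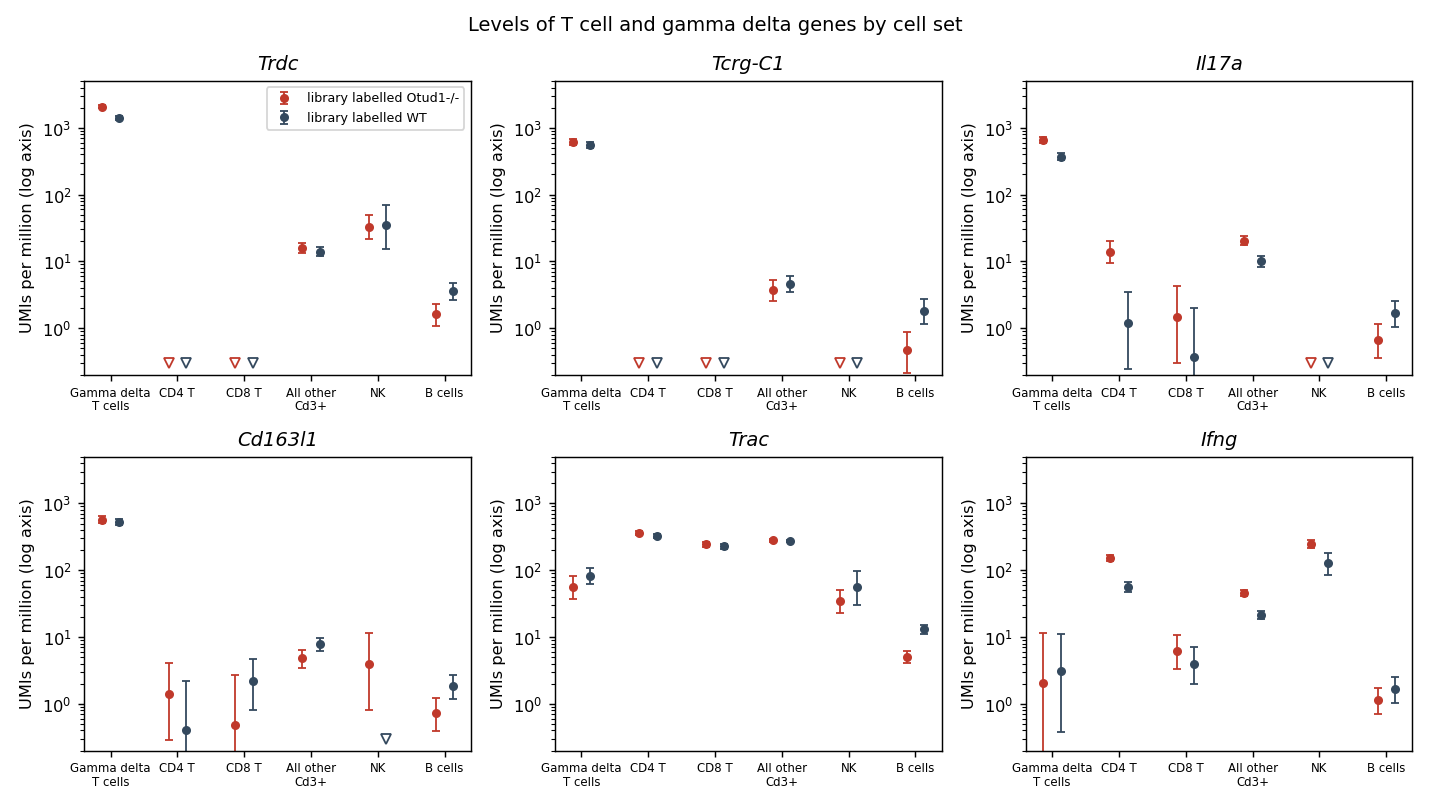
Level of 6 genes in 6 sets of barcodes, in CPM on a log axis; points are the summed level in each library and bars its exact Poisson 95% interval, and open triangles mark 0 UMIs (by construction for Trdc and Tcrg-C1 in CD4 and CD8 T cells, which were chosen without them). Il17a and Cd163l1 reached 652 and 568 CPM in gamma delta T cells of the library labelled Otud1-/- and 369 and 524 CPM in those of WT, far above all other sets.

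The limits of the rule ran through cells with few UMIs. Of the gamma delta T cells, those with just 2 UMIs of Trdc and Tcrg-C1 numbered 4 in the library labelled Otud1-/- and 35 in WT, with 80.1 and 222 CPM of Cd163l1. Barcodes that met all other conditions with 1 such UMI numbered 18 and 53, with 15.6 and 84.7 CPM of Cd163l1. At the other limit, cells with just 3 Cd3 UMIs numbered 2 and 37, and barcodes with 2 Cd3 UMIs numbered 5 and 46. The barcodes with 2 Cd3 UMIs still had 418 and 380 CPM of Cd163l1. More WT cells than cells of the library labelled Otud1-/- sat at both limits.

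Among the variable segments Trdv4 led. It had 178 UMIs in 58 of 89 cells (65.2%) in the library labelled Otud1-/- and 331 UMIs in 103 of 193 cells (53.4%) in WT. Reads from the 3′ end seldom reach a variable segment, so a cell without such a UMI need not lack it. With each cell thinned to 1500 UMIs, which 86 and 142 cells had, a Trdv4 UMI would be found in 39.1% of cells of the library labelled Otud1-/- and 40.7% in WT, a difference of -1.58 points (-14.2 to 11.5). In B cells, with medians of 4169 and 3027 UMIs, the thinned shares were 0.0898% and 0.428%. In natural killer cells, chosen without a Cd3 UMI, they were 2.49% and 3.64%, with 10 of 127 and 6 of 70 cells positive before thinning. A Trdv4 UMI alone is therefore no proof of a rearranged receptor. Among gamma chains, Tcrg-V6 had 14 UMIs in the library labelled Otud1-/- and 28 in WT, and Trgv2 had 21 and 40. Tcrg-V4 had 2 and 5, Tcrg-V5 had 5 and 1, and Tcrg-V1 had 1 and 5. Tcrg-V6 sat where Trdv4 did, with 14 of its 14 UMIs in Trdv4-positive cells of the library labelled Otud1-/- and 27 of 28 in WT. Trgv2 was less bound to them, with 14 of 21 and 16 of 40. Tcrg-V6 and Trdv4 are the segments of the pair named above for gingiva, but whether they were joined in these cells was not tested.

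Cells with a Trdv4 UMI differed in level from those without in a like way in both libraries. Median depth was 4674 UMIs with and 4792 without in the library labelled Otud1-/-, and 2913 with and 2056 without in WT. Cd163l1 was at 736 CPM with a Trdv4 UMI and 273 CPM without in the library labelled Otud1-/-, and at 726 and 272 CPM in WT. Il17a was at 797 and 398 CPM in the library labelled Otud1-/-, and at 544 and 150 CPM in WT. Cxcr6, a chemokine receptor of tissue-resident T cells, was at 1242 and 557 CPM, and at 734 and 440 CPM in WT. Each of these type 17 and residency genes was higher with Trdv4 in both libraries, with intervals that did not overlap. The intervals cover the counting of UMIs and not the spread between cells. Mixed barcodes were kept here, among them those of 51659 UMIs in WT and 22547 in the library labelled Otud1-/-. Both lacked Trdv4, so their UMIs add to the total that scales the CPM of the cells without it. The part of the mixed barcodes in these differences was not tested.

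Nkg7, Cd27 and Ccl5 ran the opposite way, while Areg did not. Too few Ifng UMIs were found, as given above, to tell an interferon-making branch. Nkg7, a cytotoxic granule gene, was at 48.4 CPM with a Trdv4 UMI and 313 CPM without in the library labelled Otud1-/-, and at 78.1 and 192 CPM in WT. Cd27, a costimulatory receptor that in mice marks interferon-making gamma delta T cells, was at 6.45 and 68.2 CPM, and at 2.79 and 76.8 CPM in WT. Only 6 and 12 cells had a Cd27 UMI, and they held 0 Il17a UMIs in both libraries. The cells without Cd27 had 731 and 444 CPM of Il17a. Of the 14 Cd27 UMIs in the library labelled Otud1-/-, 5 lay in 1 mixed barcode and 2 in another. Of the 23 in WT, 5 lay in the barcode that carried plasma cell RNA and others in further mixed barcodes. Ccl5, a chemokine of cytotoxic cells, was at 16.1 CPM with Trdv4 and 1472 CPM without in the library labelled Otud1-/-. In WT it was at 435 and 712 CPM, and its level may be background RNA. Areg, which encodes the repair factor amphiregulin, was higher with Trdv4, at 365 and 28.4 CPM, and at 304 and 157 CPM in WT. The 5 highest cells held 70.3% of its UMIs in the library labelled Otud1-/- and 54.5% in WT.

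**Figure D2:**
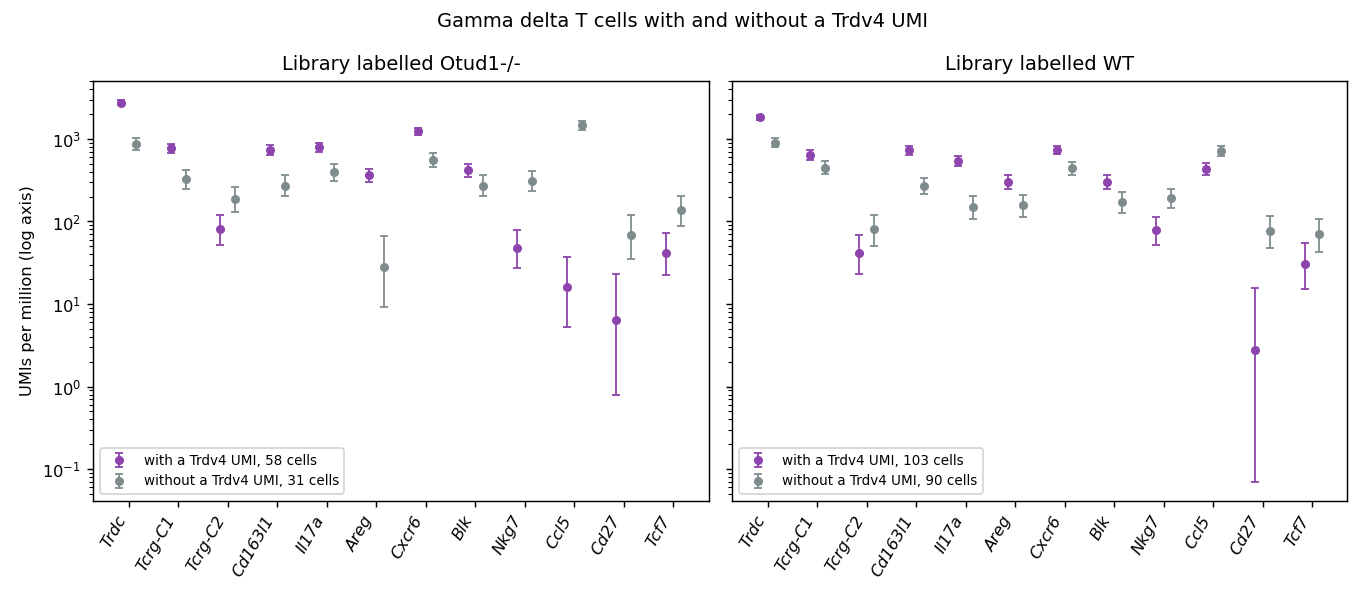
Level of 12 genes in gamma delta T cells with and without a Trdv4 UMI, by library, in CPM on a log axis, with exact Poisson 95% intervals. Cd163l1, Il17a, Areg and Cxcr6 were higher and Nkg7, Ccl5 and Cd27 lower in the cells with Trdv4 in both libraries.

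Il17a UMIs were spread unevenly. A UMI of it was found in 35 of 89 cells (39.3%) of the library labelled Otud1-/- and 65 of 193 (33.7%) of WT. The 5 highest cells held 66.6% of all Il17a UMIs in the library labelled Otud1-/- and 40.3% in WT, with 67 UMIs in the highest cell of the library labelled Otud1-/- and 46 in that of WT. In the library labelled Otud1-/-, 5 cells entered through Tcrg-C1 alone, with no Trdc UMI. Of these, 1 held 62 of the 317 Il17a UMIs. These 5 cells had Trac at 302 CPM, against 39.5 CPM in the cells with Trdc, and 0 UMIs of Cd163l1 and Trdv4. In WT, 13 such cells had 233 CPM of Trac against 70.3 CPM, with 4 Cd163l1 and 3 Trdv4 UMIs. Whether the cells without Trdc are gamma delta T cells was not tested. In the cells with Trdc, Il17a was at 559 and 387 CPM. Cd163l1 was spread more evenly, over 66 and 120 cells, with 18.8% and 13.9% of its UMIs in the 5 highest. Il17a lay with Cd163l1 in 30 of the 35 cells and 50 of the 65. Il17f, its neighbour, had 15 UMIs in 5 cells of the library labelled Otud1-/- and 45 UMIs in 14 cells of WT, and 3 and 10 of those cells also had Il17a. A UMI of Cd163l1, Il17a, Il17f, Il23r or Blk was in 82 cells (92.1%) and 153 cells (79.3%). Thinned to 1500 UMIs, an Il17a UMI would be found in 23.6% of cells of the library labelled Otud1-/- and 24.4% of WT, a difference of -0.768 points (-11.7 to 11.1), against 0.156% and 0.205% of B cells, which should lack it.

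**Figure D3:**
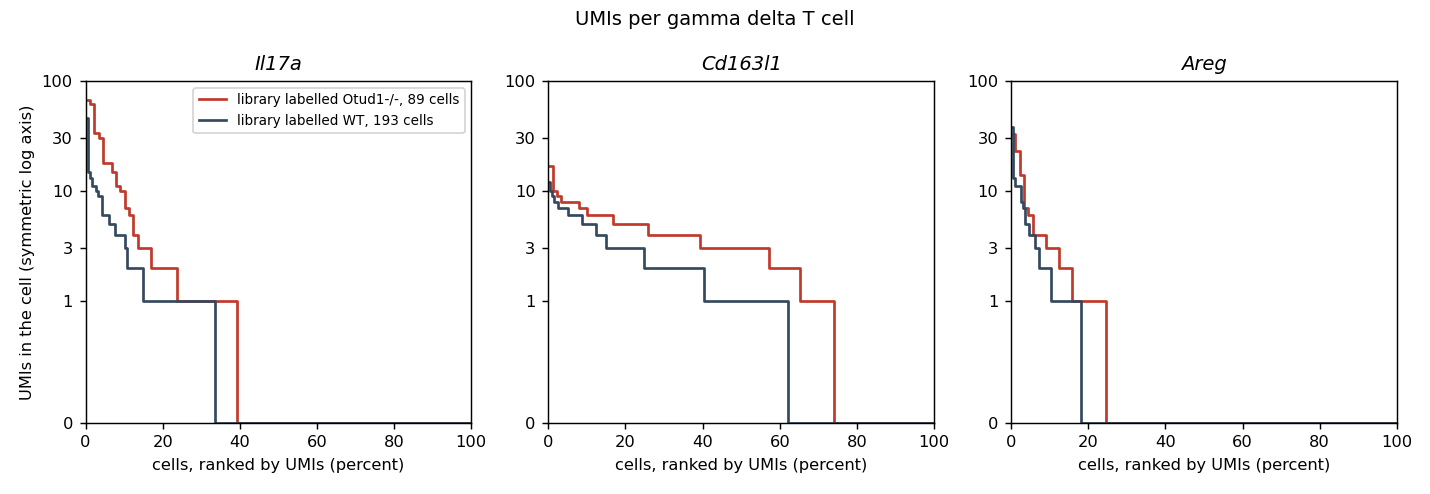
UMIs of Il17a, Cd163l1 and Areg in each gamma delta T cell, ranked from highest to lowest; the horizontal axis is the percent of cells of the library and the vertical axis is logarithmic above 1 UMI. Il17a and Areg fall off within few cells, while Cd163l1 reaches 74.2% of cells in the library labelled Otud1-/- and 62.2% in WT.

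Set against all other Cd3-positive barcodes of the same library, 204 of the 5290 genes with enough UMIs (3.86%) stood 2-fold or more higher in gamma delta T cells of both libraries, and 73 (1.38%) stood as far below. Genes of the rule and receptor segments were left out. The ratios below are log2 of CPM with 0.5 added, given for the library labelled Otud1-/- and then for WT. The highest by the smaller of both ratios was Cd163l1, at 6.75 and 5.99. Kcnk1, a potassium channel, stood at 6.56 and 4.98 and Il17a at 4.96 and 5.14. Il23r, the IL-23 receptor subunit, was at 5.09 and 4.85, and Il1r1, the IL-1 receptor, at 4.38 and 3.93. Abi3bp, Clnk, Jcad, Ppp1r14c, Actn2, Pde5a, 5830411N06Rik, F2r, Aqp3, Zbtb16, Cryba4, Prelid2, Ly6g5b, Krt83 and Npnt completed the 20, from 6.22 and 4.90 for Abi3bp, a matrix-binding protein gene, to 4.70 and 3.02 for Npnt, which encodes a ligand of an integrin. Zbtb16 encodes PLZF, a factor of innate-like T cells, and was at 4.26 and 3.59. The top 20 thus held both receptors for the cytokines that call up IL-17A.

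The 10 lowest were S100a8, Gzmb, S1pr1, Mki67, Mzb1, Cd28, S100a9, Cd6, Gzma and Prkch. Gzmb, a granzyme gene, was at 20.6 CPM in gamma delta T cells of the library labelled Otud1-/- and 23.3 CPM in those of WT, against 103 and 140 CPM in all other Cd3-positive barcodes. S1pr1, the receptor by which lymphocytes leave tissue, was at 49.4 and 43.4 CPM against 206 and 185 CPM. Cd28, the classical costimulatory receptor, was at 18.5 and 41.9 CPM against 178 and 161 CPM. S100a8 and S100a9 are neutrophil genes and Mzb1 a plasma cell gene. The neutrophil list summed to 971 and 423 CPM in gamma delta T cells against 3715 and 1933 CPM in all other Cd3-positive barcodes, with 10 of 10 genes detected in both, and their part in these ratios was not tested.

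**Figure D4:**
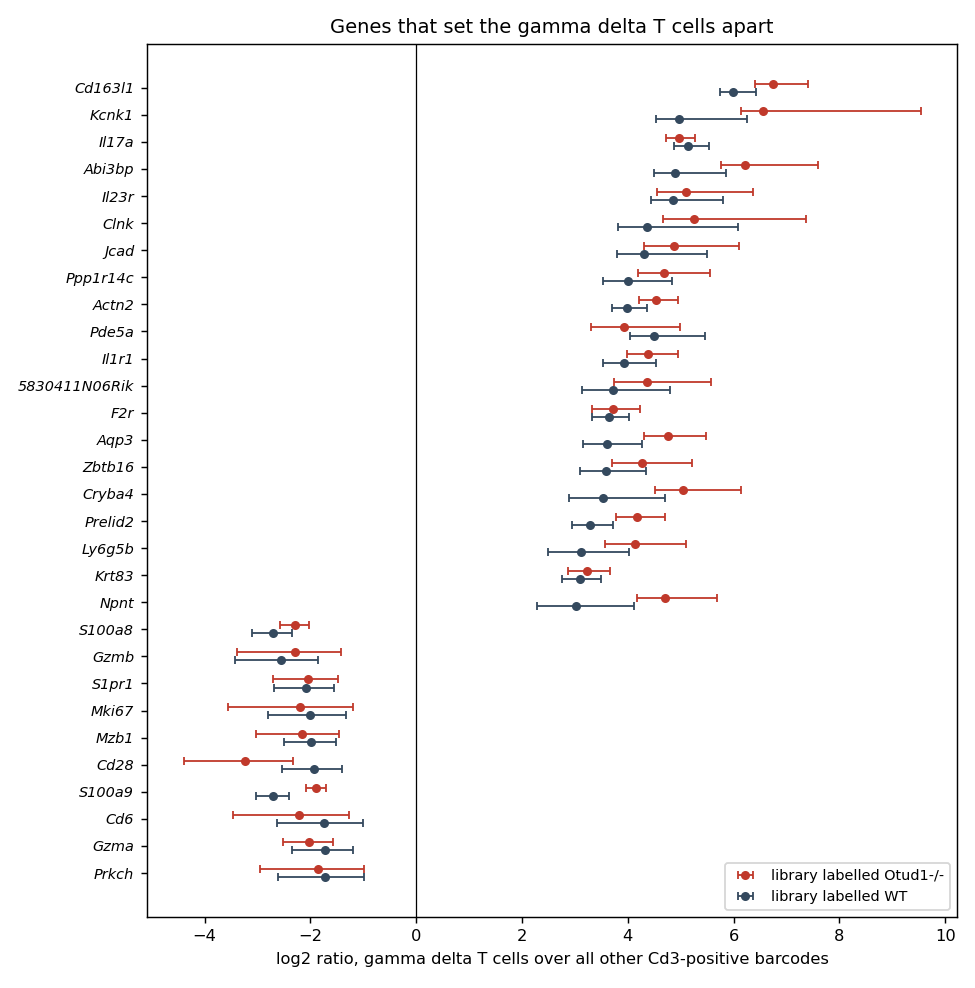
Log2 ratio of gamma delta T cells over all other Cd3-positive barcodes for the 20 highest and 10 lowest genes, in each library, with exact conditional 95% intervals for the counts alone. Every gene lies on the same side of 0 in both libraries, as the rule that named them required.

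Grouped by role, the type 17 genes were the most uniform. Of 38 genes on this list 31 could be compared. Of these 24 were past 2-fold above in both libraries and 0 below, beside 3.86% and 1.38% of all 5290 genes. Their medians were 2.20 in the library labelled Otud1-/- and 2.26 in WT. The list and the markers were drawn up for such cells, with earlier results of these data known. Rora, which encodes the nuclear receptor RORα, was at 2.63 and 2.30, and Blk, a kinase of gamma delta T cells, at 3.57 and 2.87. Of 22 cytokine receptor genes 7 were higher and 1 lower, beside the same shares of all genes. Il18r1 was at 2.11 and 2.26, Il2ra at 2.20 and 2.26, and Il7r at 1.71 and 1.56.

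Residency and recirculation genes lay apart. The counts of these lists stand beside 3.86% higher and 1.38% lower of all 5290 genes. Of 17 genes of tissue residency 6 were higher and 0 lower. Cxcr6 was at 3.91 and 2.83, Gpr183, a receptor for oxysterols, at 2.20 and 1.77, and Itgav, an integrin subunit, at 1.49 and 1.46. Others of the list were not past 2-fold in both libraries, among them Cd69 at 0.45 and 0.30 and Itgae at 0.83 and 1.10. Rgs10, at -1.25 and -0.91, and Ahr, at -0.51 and -0.50, lay below 0. Of 11 genes of naive and recirculating T cells 0 were higher and 4 lower, with medians of -1.87 and -0.87. Ccr7, the lymph node homing receptor, was at -3.32 and -1.56, and Lef1, a factor of naive T cells, at -2.99 and -1.55. Of 18 checkpoint and costimulatory genes 6 were higher and 5 lower, beside the same shares of all genes. Pdcd1, which encodes PD-1, had 331 and 306 CPM against 35.5 and 43.3 CPM in all other Cd3-positive barcodes. Among the lower, Cd2 was at -2.13 and -1.61 and Tnfrsf18, which encodes GITR, at -1.94 and -1.60.

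Signalling genes below the receptor split as well. Of 23 compared, 4 were higher and 3 lower, beside 3.86% and 1.38% of all 5290 genes. The lists that follow stand beside the same shares. Blk, Zap70, Cd247 and Nfatc2 were higher, with the kinase gene Zap70 at 1.63 and 1.46. Lck, the kinase that CD4 and CD8 bring to the receptor, was at -1.45 and -2.05, Fyb at -1.59 and -1.04 and Prkcq at -1.02 and -1.03. Of 13 effector genes 6 were higher and 1 lower. Among them Areg was at 2.30 and 1.85 and Tnfsf11, which encodes the osteoclast factor RANKL, at 1.42 and 1.79, with 57.6 and 57.4 CPM in gamma delta T cells against 21.2 and 16.2 CPM. The lower one was Tnf, at -2.23 and -1.55. Of 19 type 1 and cytotoxic genes 3 were higher (Il2rb, Klrk1 and Cst7) and 3 lower (Gzma, Gzmb and Cd27). Of 14 cell cycle genes 0 were higher and 2 lower, Mki67 and Top2a.

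Gamma delta T cells made up 1.28% (1.03 to 1.58) of kept barcodes in the library labelled Otud1-/- and 1.51% (1.31 to 1.74) in WT, a difference of -0.228 points (-0.558 to 0.125). Of Cd3-positive barcodes they were 8.23% of 1081 and 9.40% of 2054, a difference of -1.16 points (-3.17 to 0.985). Both intervals include 0, so no difference in share was detectable at this number of cells. The difference turned to 0.140 points with at least 4 UMIs of Trdc and Tcrg-C1, and was -1.005 points among barcodes with a Y-linked and no Xist UMI.

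Between the libraries, 2677 genes could be compared in gamma delta T cells, with a mean of at least 50 CPM and at least 30 UMIs in the higher library. Of these 305 (11.4%) were at least 1.5-fold higher in the library labelled Otud1-/- and 172 (6.43%) at least 1.5-fold lower. The median log2 ratio was 0.11, not 0, and centring by the median of ratios (a shift of -0.11) gave 198 higher and 250 lower, while TMM factors gave 212 and 230. Without the mixed barcodes it was 184 higher and 246 lower of 1920. Among all other Cd3-positive barcodes 15 of 2699 were higher and 47 lower. Those sums held far more UMIs, so the counts cannot be set against each other. Among all 5348 genes averaging 20 CPM or more in gamma delta T cells, the level used for lists, 14.4% were past 1.5-fold above WT and 9.44% past it below, with a median of 0.08. These counts were 768 and 908 of 5254 without the mixed barcodes. Of the 2677 genes 188 were at levels that may be background RNA, and these were left out of the genes named next.

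Of the 12 highest genes, 11 stayed above a log2 ratio of 1 without the mixed barcodes, and Npnt did not. Fam110a, named for a sequence family, was at 309 CPM in the library labelled Otud1-/- and 99.3 CPM in WT, a log2 ratio of 1.63 (1.21 to 2.08), and at 1.25 in all other Cd3-positive barcodes. Tnfrsf25, the death receptor DR3, whose ligand TL1A costimulates T cells, was at 109 and 35.7 CPM, a ratio of 1.60 (0.88 to 2.39), against 0.50 in all other Cd3-positive barcodes. Cmtm7 was at 278 and 109 CPM, a ratio of 1.35 (0.93 to 1.79), against -0.03. Rasa3, a brake on Ras and Rap signalling, was at 1.76 and Acsbg1, an acyl-CoA synthetase gene, at 1.74. Npnt was at 1.73, but at 0.77 (-0.23 to 1.82) without the mixed barcodes. Ssna1, Cryba4, Sdf2l1, Psmg4 and St3gal6 lay between 1.59 and 1.34. Gbp2, an interferon-induced GTPase gene, was at 1.46, with 43.5% of its UMIs in 1 cell of the library labelled Otud1-/-, and at 0.93 without the highest cell of each library.

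Of the 12 lowest genes, Jchain, C1qa, C1qb, C1qc, Sdc1 and Txndc5 are genes of plasma cells or macrophages. Jchain was at -7.09, but the WT barcode rich in Igkc held 98.1% of its WT UMIs, and without the barcodes of mixed content it was at -1.15 (-2.82 to 0.28). C1qa, C1qb and C1qc lay between -3.50 and -3.74. Without those barcodes all 3 had a mean under 20 CPM, and C1qb was at 1.87 and C1qc at 0.15. Txndc5 was at -1.66, and at -0.17 without the highest cell of each library. Sdc1, which encodes syndecan-1 and is also known from IL-17-making gamma delta T cells in mice, kept its place, at 14 UMIs in 13 cells of the library labelled Otud1-/- and 69 UMIs in 36 cells of WT, a ratio of -1.87 (-2.84 to -1.05), and -1.93 without the mixed barcodes.

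The other 6 genes were Hist1h2ap, Fos, Brd9, Helz, Jun and Mast4, between -2.29 and -1.36. Fos, an early response gene, was at 82.3 CPM (40 UMIs) in the library labelled Otud1-/- and 271 CPM (175 UMIs) in WT, a log2 ratio of -1.72 (-2.25 to -1.22), with -0.63 in all other Cd3-positive barcodes. Jun, its partner in AP-1, was at 84.4 and 219 CPM, a ratio of -1.37 (-1.91 to -0.86), with -0.65. Over the 37 immediate early genes averaging 20 CPM or more, 0 were past 1.5-fold above WT and 6 past it below, beside 14.4% and 9.44% of all genes, and their median was -0.16. Besides Fos and Jun these were Egr1, Nr4a1, Dnajb1 and Ppp1r15a. Leaving out the mixed barcodes gave 0 of 35 higher and 13 lower, beside 768 and 908 of all 5254 genes. The median of the list was then -0.34.

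**Figure D5:**
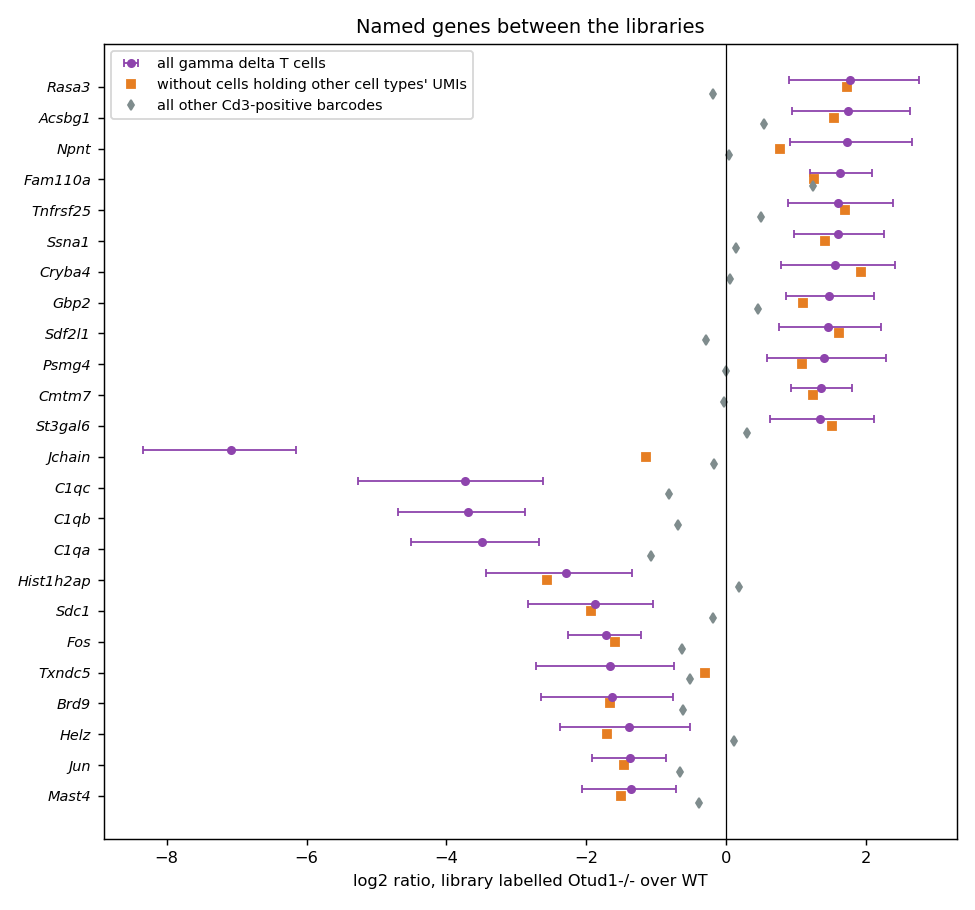
Log2 ratios, the library labelled Otud1-/- against WT, of the 12 highest and 12 lowest genes in gamma delta T cells, with exact conditional 95% intervals. Points alone give the ratio without the mixed barcodes and the ratio in all other Cd3-positive barcodes. C1qa, C1qb and C1qc have no middle point because they were below 20 CPM without those barcodes, and Jchain lies at -7.09 with all cells and at -1.15 without them.

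Type 17 genes differed in no single direction between the libraries. Over 37 averaging 20 CPM or more, 9 were past 1.5-fold above WT in the library labelled Otud1-/- and 3 past it below, beside 14.4% and 9.44% of all genes. Their median was 0.26, against -0.07 for the same genes in all other Cd3-positive barcodes. Among cells other than the mixed barcodes 4 were higher and 6 lower, beside 768 and 908 of all 5254 genes. The median of the list was then 0.0036. Il17a had a log2 ratio of 0.82 (0.57 to 1.07), and 0.997 in all other Cd3-positive barcodes. However, the 5 highest cells held 66.6% of its UMIs in the library labelled Otud1-/- and 40.3% in WT. In the cells with a Trdc UMI it was at 559 and 387 CPM. The interval of its difference in thinned share, given above, included 0. Il17f went the other way, at -1.16 (-2.13 to -0.31), resting on 5 and 14 cells. Rora was at 0.61 (0.43 to 0.79) and Cxcr6 at 0.72 (0.52 to 0.92), both past 1.5-fold, and Il7r, at 0.51 (0.34 to 0.67), was not. Without the mixed barcodes Rora was at 0.22 (0.01 to 0.44), Cxcr6 at 0.36 (0.14 to 0.59) and Il7r at 0.24 (0.05 to 0.43), so neither Rora nor Cxcr6 was past 1.5-fold. Thinned to 1500 UMIs, a Rora UMI would be found in 75.4% of cells of the library labelled Otud1-/- and 56.9% of WT, a difference of 18.5 points (5.72 to 29.9), against 1.04% and 3.54% of B cells. For Cxcr6 the difference was 17.1 points (3.98 to 29.1) and for Il7r 15.6 points (3.17 to 26.8). Without the mixed barcodes, with 66 and 90 cells left, the differences were 9.66 points (-4.91 to 23.1) for Rora, 6.46 points (-8.59 to 20.6) for Cxcr6 and 10.3 points (-3.84 to 23.2) for Il7r, and all 3 intervals include 0. These were among 25 genes so compared, and the intervals were not adjusted for that number. Cd163l1, at 0.12 (-0.12 to 0.35), and Il23r, at -0.09 (-0.72 to 0.53), had intervals that include 0.

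Genes of naive and recirculating T cells were mostly lower in the library labelled Otud1-/-. Of 11 genes 1 was past 1.5-fold above WT and 6 past it below, beside 14.4% and 9.44% of all genes, and the median was -0.62 against 0.21 in all other Cd3-positive barcodes. Ccr7 was at 41.2 CPM (20 UMIs) in the library labelled Otud1-/- and 121 CPM (78 UMIs) in WT, and Klf2, which drives S1pr1, at 136 and 321 CPM. With the mixed barcodes left out 0 were higher and 7 lower, beside 768 and 908 of all 5254 genes. The median of the list was then -0.64. Among cells that also had a UMI of Cd163l1, Il17a, Il17f, Il23r or Blk, 1 of 9 was higher and 2 lower, with a median of -0.33. Over all 5135 genes 760 were then higher and 947 lower. However, 6 of the 11 may be background by the rule above, and the B cell list, whose cells share several of these genes, summed to 757 CPM in gamma delta T cells of the library labelled Otud1-/- and 1213 CPM in WT, with 10 of 10 genes detected in both. Its part in the difference was not tested.

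A further list holds genes of integrins, adhesion and migration, with Vim and S100 genes among them. Of 26 of its genes 7 were past 1.5-fold above WT and 3 past it below, beside 14.4% and 9.44% of all genes. Their median was 0.39, against 0.08 over all genes and 0.0003 for the same genes in all other Cd3-positive barcodes. Without the mixed barcodes 7 of 25 were higher and 2 lower, beside 768 and 908 of all 5254 genes. Without the WT barcode of most UMIs 5 of 26 were higher and 3 lower, with a median of 0.27. Over all 5375 genes 643 were then higher and 590 lower. S100a10, a partner of annexin A2, was at 2231 CPM in the library labelled Otud1-/- and 959 CPM in WT, a log2 ratio of 1.22 (1.07 to 1.36), against 0.40 in all other Cd3-positive barcodes. Lgals3, which encodes galectin-3, was at 589 and 257 CPM, a ratio of 1.19 (0.91 to 1.48), and Itgb1, an integrin subunit, at 183 and 82.2 CPM, a ratio of 1.15 (0.65 to 1.67). These 3 stood at 1.06, 2.03 and 1.70 without the mixed barcodes. That set still held the barcode of 17965 UMIs and 147 Lyz2 UMIs in the library labelled Otud1-/-. The part of macrophage RNA in these ratios was not tested. Of 27 genes of lineage transcription factors 5 were higher and 3 lower. Without the mixed barcodes 0 of 26 were higher and 6 lower, again beside 768 and 908 of 5254 genes. Ccl3 and Ccl4, at 6.17 and 28.8 CPM in the library labelled Otud1-/- and 144 and 436 CPM in WT, had the largest differences among effector genes, but both may be background, and 53.7% of the WT Ccl4 UMIs came from 1 cell.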

How the data were processed

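Raw UMI counts per gene and barcode, whole numbers with no normalisation, were deposited by the authors, per the file headers. The submitters' processing notes name the genome build mm10 and the tools Seurat 3.2.3 and Cell Ranger 5.0.0, whereas the matrix headers name Cell Ranger 6.0.1.

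The members and gene lists were chosen with earlier results of these data known. Cd3e, Cd3d, Cd3g, Trdc, Tcrg-C1, Cd4, Cd8b1 and Il22 chose the cells, so their values are descriptions. UMIs were summed over the cells of a library, scaled to CPM and compared as log2 ratios with 0.5 CPM added. Summed gamma delta T cells held 485879 UMIs in the library labelled Otud1-/- and 644742 in WT. Levels carry exact Poisson, ratios exact conditional binomial, shares Clopper-Pearson and differences of shares Newcombe intervals, all at 95% and for counting error only. Thinned shares are exact expectations over all draws of 1500 UMIs. This replaced a single random draw after 2 draws were seen to differ by several points. All other Cd3-positive barcodes (at least 3 Cd3 UMIs) numbered 992 in the library labelled Otud1-/- and 1861 in WT.

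Named genes were the 20 highest and 10 lowest against those barcodes, by the ratio nearer to 0 with the same sign in both libraries, and the 12 highest and 12 lowest between libraries, without rule genes, receptor and immunoglobulin segments, sex-linked and predicted genes, Otud1, and genes under 2 times an estimated background, set by the larger of the B cell and neutrophil list ratios of members to library. From the lists up to 4 genes each could be named by size of ratio. Several more genes, among them Ifng, Areg, Rora, Il7r, Tnfsf11 and the adhesion and migration genes, were named after their values were seen. A simulated-doublet score at 0.8% per 1000 barcodes was used as an alternative only. Scripts ran in Python 3.11.15 with NumPy 2.4.6 and SciPy 1.17.1 and were tested on simulated data, and TMM factors came from edgeR 4.0.16. Cells without the mixed barcodes lack those with 2 or more UMIs of B cell genes, Cd79a and Ms4a1 among them, 3 or more of C1qa, Csf1r, Fcgr1 and Siglech, or 10 or more of S100a8 and S100a9. Gene positions are from GENCODE vM21. A few genes of the lists are not reported here.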

Additional observations from a re-analysis of the deposited data

How the results depend on the processing

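No paired analysis was possible because each genotype has 1 library and no replicate number. Of the alternative values for the main results 77 stayed close to the reported ones and 15 moved. The difference in the share of gamma delta T cells, the library labelled Otud1-/- minus WT, changed to 0.140 points (at least 4 UMIs of Trdc and Tcrg-C1), 0.130 points (rule applied after thinning to 1500 UMIs) and -1.005 points (Y-linked and no Xist UMI). The count of genes higher in the library labelled Otud1-/- was 71 of 595 compared after thinning and 65 of 535 in another draw. It was 184 of 1920 without the mixed barcodes and 198 of 2677 with the median of ratios. At a mean of at least 100 CPM it was 129 of 1420. Among cells with a type 17 UMI, mixed barcodes left out, it was 165 of 1706. The count of lower genes was 55 after thinning, 55 in another draw, 57 at 100 CPM, out of the same numbers, and 283 of 2955 with no minimum. Against all other Cd3-positive barcodes 74 of 1374 genes were higher at 100 CPM. The type 17 median was -0.13 among cells with a type 17 UMI, mixed barcodes left out. Fewer genes were compared under each of these count settings but the median of ratios and no minimum. The cause was not tested. Of single genes, C1qc reversed to 0.15 without the mixed barcodes and 0.51 in the other thinned draw, C1qb to 1.87 without the mixed barcodes and 2.62 with a type 17 UMI besides, and Txndc5 to 1.27 among barcodes with a Y-linked and no Xist UMI. The second draw, the combined setting, thinned shares without the mixed barcodes and leaving out the WT barcode of most UMIs were chosen after seeing the data. With 89 and 193 cells, the exact 95% interval of a count of 0 UMIs, as for Tcrg-V7, reaches 7.59 CPM in the library labelled Otud1-/- and 5.72 CPM in WT.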

Other observations

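Interferon-stimulated genes did not move as 1 group between the libraries. Of 35 that averaged 20 CPM or more in gamma delta T cells, 7 were past 1.5-fold above WT in the library labelled Otud1-/- and 3 past it below, beside 14.4% and 9.44% of all genes, and the median log2 ratio was 0.05. Without the mixed barcodes 8 of 28 were higher and 3 lower, beside 768 and 908 of all 5254 genes. Those higher included interferon-induced GTPase genes, with Igtp at 1.11 (0.37 to 1.90), Gbp4 at 0.97 (0.24 to 1.74) and Irgm1 at 1.09 (0.16 to 2.11). Ifi27l2a ran the other way, at -0.92 (-1.22 to -0.63), and may be background.

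Among 21 genes of the NF-κB pathway 3 were higher and 3 lower, near the shares over all genes. Without the mixed barcodes 2 were higher and 4 lower, beside 768 and 908 of all 5254 genes. Traf1, an adaptor of TNF receptors, was at 317 CPM in the library labelled Otud1-/- and 155 CPM in WT, a log2 ratio of 1.03 (0.66 to 1.41), against 0.39 in all other Cd3-positive barcodes. Map3k8 was at -0.82 (-1.66 to -0.04) and Birc3 at -0.75 (-1.35 to -0.19). Of 17 glycolysis and hypoxia genes 4 were higher and 2 lower, beside 14.4% and 9.44% of all genes. Without the mixed barcodes 2 of 18 were higher and 4 lower, again beside 768 and 908 of 5254 genes. Hk2, the inducible hexokinase, was at 98.8 CPM in the library labelled Otud1-/- and 189 CPM in WT, a ratio of -0.93 (-1.45 to -0.44), and at -0.82 in all other Cd3-positive barcodes, while Aldoa was at 0.76 (0.46 to 1.06) and Tpi1 at 1.08 (0.30 to 1.91).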
